A study of Homo sapiens with 6 samples.

Results

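The 33 genes described here encode glucose transporters, the enzymes of glycolysis and the carriers of lactate. They also include the kinases and E1 subunits of the pyruvate dehydrogenase complex, which oxidizes pyruvate in mitochondria. They were taken by gene symbol from the table of 19470 genes, in which all 33 were found. The libraries came from HCCC9810, an established human cholangiocarcinoma (CCA) cell line that carries no engineered genotype in the labels. One group received 20 μM isolinderalactone (ILL), a plant sesquiterpene lactone, for 24 h, and the other received DMSO vehicle for 24 h, with 3 libraries per group. The labels number the libraries and do not say whether they came from separate cultures, so p-values measure the spread between these libraries, which may be technical. All values come from 1 cell line at 1 dose and 1 time.

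Glycolysis splits glucose into pyruvate in the cytosol and yields ATP and NADH. Most of its steps can be run by several isoforms that differ between tissues and in their regulation, and tumor cells often run the pathway to lactate even when oxygen is present. Pyruvate is either reduced to lactate by lactate dehydrogenase and exported with a proton, or oxidized to acetyl-CoA by the pyruvate dehydrogenase complex, which pyruvate dehydrogenase kinases switch off.

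Total counts were between 34282764 and 37758569 per library. The 33 genes took 1.66%, 1.67% and 1.79% of all counts in the control libraries and 1.35%, 1.29% and 1.33% with ILL, so the sum was lower in each ILL library than in each control. GAPDH alone made up 0.817%, 0.811% and 0.898% of the counts in controls and 0.703%, 0.633% and 0.691% with ILL. Without GAPDH the remaining genes still took 0.847% to 0.892% in controls and 0.637% to 0.655% with ILL. Markers of biliary epithelium were abundant in both groups (summed level 8805 to 9034 CPM, counts scaled to the library size after TMM normalization, in controls and 8524 to 9016 CPM with ILL). Of these 7 markers, 2 were higher and 4 lower with ILL, and 1 was not tested. Summed markers of hepatocytes, fibroblasts and endothelium reached at most 43.2 CPM in any library. The leukocyte list went from between 36.0 and 40.9 CPM to between 111 and 117 CPM, almost all of it CD68, a lysosomal glycoprotein. RNA from bulk cultures cannot tell fewer expressing cells from less RNA per cell.

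The promoter windows of 6 genes that recur below are shown first. PDK4 and PFKM were the only genes among the 31 tested that changed by more than 2-fold, ENO1 and ENO2 are isoforms of the same enzyme that moved in opposite directions, and LDHA and SLC2A1 stand at the exit and the entrance of the pathway. Each window holds 250 bases before and 50 bases after the RefSeq start on GRCh38.p14, written 5′ to 3′ on the strand of the gene. Capitals mark ACGTG on either strand (CACGT on the printed one), the core to which hypoxia-inducible factors are known to bind, which lies inside the E-box CACGTG. The windows are PDK4 at chr7:95596467-95596766, minus strand, PFKM at chr12:48105623-48105922, plus strand, ENO1 at chr1:8878637-8878936, minus strand, ENO2 at chr12:6914330-6914629, plus strand, LDHA at chr11:18394313-18394612, plus strand, and SLC2A1 at chr1:42958819-42959118, minus strand.
PDK4: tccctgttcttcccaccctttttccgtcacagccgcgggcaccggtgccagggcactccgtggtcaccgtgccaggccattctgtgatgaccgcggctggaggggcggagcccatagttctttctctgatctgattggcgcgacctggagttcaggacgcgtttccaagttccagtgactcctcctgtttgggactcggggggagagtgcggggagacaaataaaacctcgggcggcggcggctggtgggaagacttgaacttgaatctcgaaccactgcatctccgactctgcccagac
PFKM: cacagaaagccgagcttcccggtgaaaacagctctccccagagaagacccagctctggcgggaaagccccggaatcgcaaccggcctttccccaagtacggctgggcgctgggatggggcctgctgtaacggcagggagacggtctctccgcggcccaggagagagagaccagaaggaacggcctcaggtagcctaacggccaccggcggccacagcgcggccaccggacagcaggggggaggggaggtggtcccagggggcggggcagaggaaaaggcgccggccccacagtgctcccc
ENO1: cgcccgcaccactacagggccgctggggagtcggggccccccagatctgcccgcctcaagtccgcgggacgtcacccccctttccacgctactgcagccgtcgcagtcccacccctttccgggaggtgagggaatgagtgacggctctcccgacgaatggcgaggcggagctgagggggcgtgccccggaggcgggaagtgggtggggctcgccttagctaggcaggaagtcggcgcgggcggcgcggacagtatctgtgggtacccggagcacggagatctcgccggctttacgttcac
ENO2: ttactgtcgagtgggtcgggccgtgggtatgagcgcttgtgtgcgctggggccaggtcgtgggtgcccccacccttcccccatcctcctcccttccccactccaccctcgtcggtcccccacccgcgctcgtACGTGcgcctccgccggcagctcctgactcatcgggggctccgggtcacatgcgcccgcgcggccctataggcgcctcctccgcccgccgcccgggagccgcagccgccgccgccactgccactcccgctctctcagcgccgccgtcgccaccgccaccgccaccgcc
LDHA: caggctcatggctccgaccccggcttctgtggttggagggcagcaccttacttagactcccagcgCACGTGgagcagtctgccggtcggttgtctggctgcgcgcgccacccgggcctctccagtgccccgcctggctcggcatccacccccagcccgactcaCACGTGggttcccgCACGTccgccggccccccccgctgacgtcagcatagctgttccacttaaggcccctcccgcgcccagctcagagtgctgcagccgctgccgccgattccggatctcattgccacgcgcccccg
SLC2A1: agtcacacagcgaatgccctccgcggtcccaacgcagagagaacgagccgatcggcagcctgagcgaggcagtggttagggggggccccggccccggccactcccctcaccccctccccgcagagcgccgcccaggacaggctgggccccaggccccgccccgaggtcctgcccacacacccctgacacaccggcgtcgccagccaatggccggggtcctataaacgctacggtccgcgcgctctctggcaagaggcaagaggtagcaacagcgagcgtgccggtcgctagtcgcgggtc

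Windows of 30 of the 33 genes were in the RefSeq table, all but SLC2A3, PFKFB2 and SLC16A1. ACGTG was present in 11 of these 30 windows (36.7%), against 21.6% of 27305 promoters of the same length. It was found in 6 of the 14 genes that were lower with ILL, 2 of the 7 that were higher and 3 of the 9 not called or not tested. LDHA held the most, with 5 matches over both strands, in which each CACGTG counts once per strand. The full E-box CACGTG was in 5 of the 30 windows (7.43% of all promoters), those of ALDOC, GAPDH, PKLR, LDHA and PDHB. TGATGNAA, the core of ATF4 response elements, was in the window of HK1 alone (3.67% of all promoters). The median GC content was 69.2% in these windows and 58.3% over all promoters. These matches describe letters in the windows and not binding.

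After genes with low counts were removed, 31 of the 33 genes were tested among 13066. With ILL, 7 of the 31 were higher and 15 lower at a Benjamini-Hochberg adjusted p below 0.05 in the quasi-likelihood test of edgeR, while 9 did not pass. Over all genes tested, 36.2% were higher and 36.9% lower under the same rule, so the share of higher genes was below and the share of lower genes above the background, with no test of that difference. The median log2 fold change of the 31 was -0.22, against -0.0012 over all tested genes. Most changes were small. A fold change above 2 or under 0.5 together with the adjusted p, the cutoffs for differentially expressed genes (DEGs), was reached by 1 higher gene (PDK4) and 1 lower gene (PFKM), where 12.5% of all tested genes were higher DEGs and 11.4% lower DEGs. In 7 genes every ILL library lay above every control library, and in 16 every ILL library lay below, against 37.5% and 38.0% of all tested genes.

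**Figure D1:**
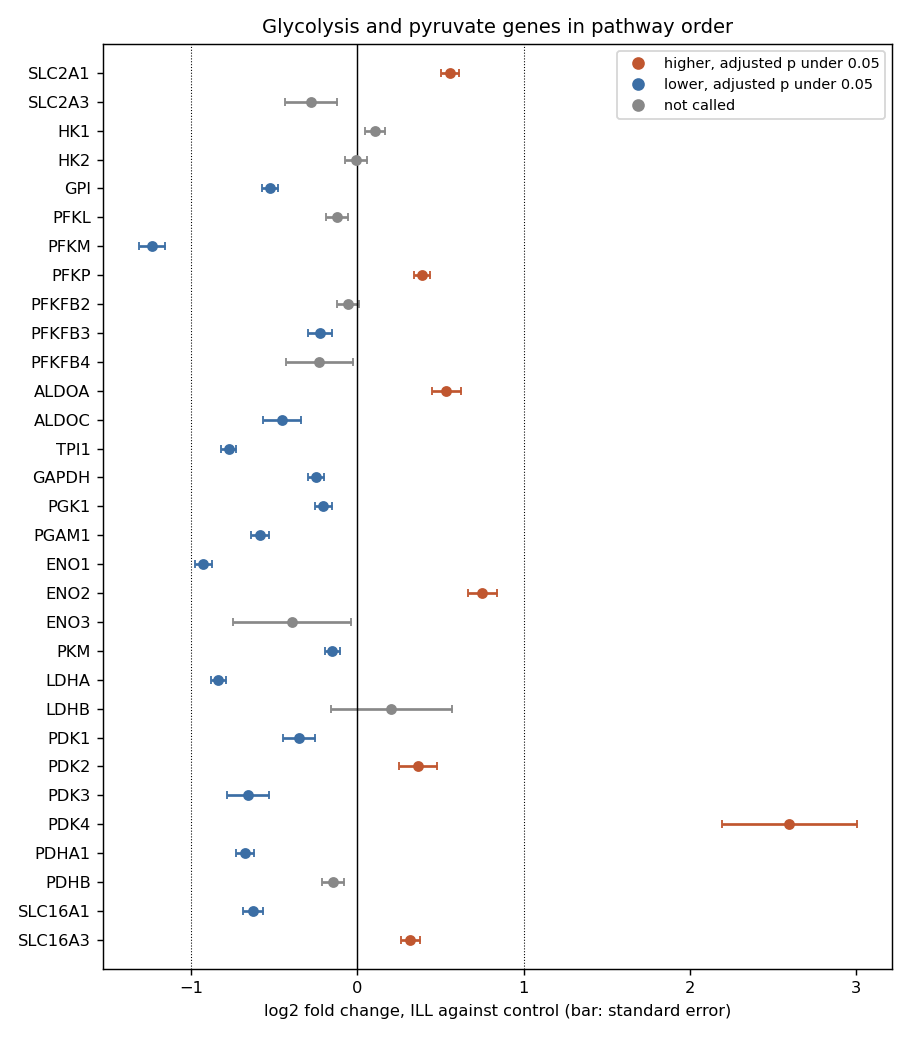
Log2 fold change of ILL against control for the 31 tested genes, in the order of the pathway, with bars for the standard error and dotted lines at a 2-fold change. Only PDK4 (2.60) lies beyond the line on the right and only PFKM (-1.23) beyond the line on the left, while TPI1, GAPDH, PGK1, PGAM1, ENO1, PKM and LDHA all lie left of 0.

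The 2 untested genes were close to absent. PFKFB1, a bifunctional enzyme typical of liver and muscle, had 2, 9 and 9 counts in controls and 7, 1 and 0 with ILL. PKLR, the pyruvate kinase of liver and red cells, had 1 count in 1 library of each group and 0 in the others. Just above the filter were ENO3 with 35 to 65 counts, LDHB with 36 to 70 counts and PDK4 with 9 to 19 counts in controls. PDK4 passed through its ILL libraries, so its being tested depended on the group in which it was high.

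At the entrance of the pathway, the glucose transporter gene SLC2A1, which encodes GLUT1, was higher with ILL. The hexokinase genes HK1 and HK2 did not pass the test. SLC2A1 was at 269, 284 and 293 CPM in control libraries and at 408, 439 and 398 CPM with ILL, so the groups did not overlap. Its log2 fold change was 0.56 (standard error, SE, 0.05, edgeR adjusted p = 8.6e-10). SLC2A3, which encodes the high-affinity transporter GLUT3, was between 6.53 and 9.48 CPM in controls and between 6.13 and 7.54 CPM with ILL. Its log2 fold change of -0.28 did not pass (edgeR adjusted p = 0.11), and it was -0.43 and passed without control replicate 3. Per gene length, SLC2A1 made up 97.4% ± 0.575 (SD, n = 3) of the summed FPKM of both transporters in controls and 98.5% ± 0.219 (SD, n = 3) with ILL.

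Hexokinases trap glucose in the cell by phosphorylation. HK2, the isoform often raised in tumors, was at 70.3, 68.2 and 80.6 CPM in controls and 73.6, 74.5 and 70.0 CPM with ILL. Its log2 fold change was -0.0060 (SE 0.07, edgeR adjusted p = 0.94), the groups overlapped, and the value lay between -0.06 and 0.07 when each library was left out. HK1, at a mean of 110.2 CPM in controls, had a log2 fold change of 0.11 (adjusted p = 0.11), and without control replicate 3 it passed at 0.16. HKDC1 was at 21.5, 19.9 and 23.0 CPM in controls and 48.3, 45.4 and 43.4 CPM with ILL. The HKDC1 log2 fold change was 1.09 (SE 0.08, edgeR adjusted p = 3.9e-12). This gene is not part of the summed hexokinase level given below. The next enzyme, GPI, which converts glucose 6-phosphate to fructose 6-phosphate, fell by 0.52 on the log2 scale (SE 0.05, edgeR adjusted p = 7.7e-10). All 3 ILL libraries were below all controls for GPI, at 279 to 285 CPM against 390 to 420 CPM.

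Phosphofructokinase commits sugar to glycolysis, and its isoform genes moved apart. PFKM, the muscle-type subunit, was at 42.7, 46.5 and 47.7 CPM in controls and at 19.9, 18.3 and 19.9 CPM with ILL. This is a log2 fold change of -1.23 (SE 0.08, edgeR adjusted p = 3.0e-13), or 0.425 of the control level, and it lay between -1.28 and -1.20 when each library was left out in turn. PFKP, the platelet-type subunit and the most abundant of the family here, rose from 356, 357 and 378 CPM to 475, 485 and 470 CPM. The PFKP log2 fold change was 0.39 (SE 0.05, edgeR adjusted p = 9.8e-08). PFKL, the liver-type subunit, had a log2 fold change of -0.12 (adjusted p = 0.095), and it did pass without control replicate 1 (-0.18), without ILL replicate 2 (-0.16), with scaling by library size only (-0.19) or in both filtered limma fits on FPKM.

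As shares of the family's summed FPKM, PFKP rose from 74.3% ± 0.980 to 82.8% ± 0.335 (SD, n = 3 each), PFKM went from 6.79% ± 0.221 to 2.45% ± 0.158 and PFKL from 18.9% ± 0.889 to 14.8% ± 0.453. The summed level of the 3 genes was 134 to 145 FPKM in controls and 153 to 158 FPKM with ILL, so the family total did not fall with PFKM. For each of these shares the groups did not overlap, and the two-sided exact permutation test gave p = 0.1, the smallest that 3 libraries against 3 can give. Positions in PFKM were shared in part with SENP1 on the other strand, which covers 8.58% of its annotated exon bases.

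The bifunctional PFKFB enzymes make and remove fructose 2,6-bisphosphate, the strongest activator of phosphofructokinase. PFKFB3, the form tied to high glycolytic rates in tumor cells, fell by 0.22 on the log2 scale (SE 0.07, edgeR adjusted p = 0.0062), from a mean of 45.4 to 38.9 CPM. PFKFB2 (log2 fold change -0.06, adjusted p = 0.46) and PFKFB4 (-0.23, adjusted p = 0.31) did not pass. PFKFB4 was at 3.86, 3.84 and 5.95 CPM with ILL, and the libraries of both groups overlapped. PFKFB3 had the largest share of the family by FPKM in each library, 64.6% to 66.9% in controls and 62.5% to 65.2% with ILL.

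Aldolase and triose-phosphate isomerase divide the sugar. ALDOA had a log2 fold change of 0.54 (SE 0.09, edgeR adjusted p = 4.8e-06), at 16.9, 18.2 and 18.1 CPM in controls and 24.9, 26.6 and 25.7 CPM with ILL. ALDOC, the brain-type aldolase, fell by 0.45 (adjusted p = 0.0012), so that ALDOA went from 52.0% ± 1.79 to 68.2% ± 0.874 of the summed FPKM of both (SD, n = 3 each; exact permutation p = 0.1). Both aldolases were far below the enzymes on either side of them, at a sum of 16.3 ± 0.607 FPKM (SD, n = 3) in controls. Of the annotated exon bases of ALDOA, 53.5% are shared with other genes in GENCODE release 29, 42.3% with AC093512.2 on the same strand, so its count depends on how shared reads were assigned, which is not given in the sources used here. TPI1 was at 1274, 1246 and 1306 CPM in controls and 764, 724 and 751 CPM with ILL. The TPI1 log2 fold change was -0.77 (SE 0.05, edgeR adjusted p = 1.6e-13).

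**Figure D2:**
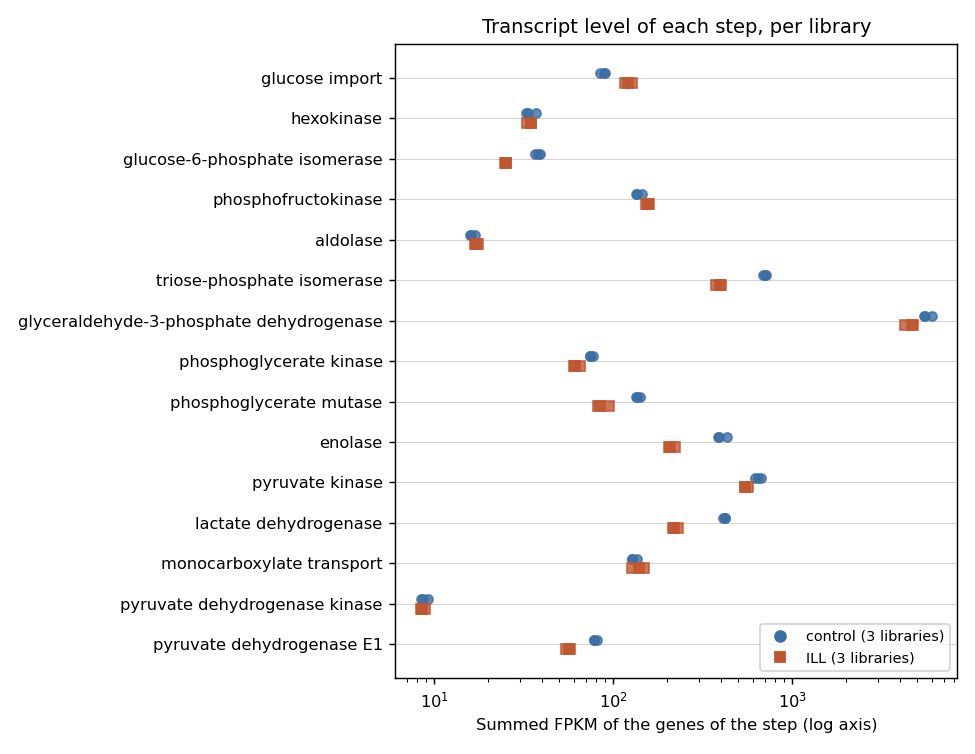
Summed FPKM of the genes of each step on a log axis, with 1 point per library (circles for 3 controls, squares for 3 ILL libraries). Glucose import and phosphofructokinase lie higher with ILL. Hexokinase (HK1 and HK2), aldolase, monocarboxylate transport and the pyruvate dehydrogenase kinases overlap. The other 9 steps lie lower with ILL.

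From triose-phosphate isomerase to lactate dehydrogenase, every step was lower with ILL when its genes were summed by FPKM. These sums are scaled by the total count of each library, and no test was made on them. TMM factors were 1.019 to 1.029 in controls and 0.9703 to 0.9823 with ILL. The sums with ILL are thus lower relative to controls than under the TMM scaling used for CPM. With ILL the sum was 0.558 of the control level for triose-phosphate isomerase, 0.803 for GAPDH, 0.828 for PGK1, 0.636 for PGAM1, 0.526 for enolase, 0.860 for pyruvate kinase and 0.535 for lactate dehydrogenase. Glucose import was at 1.39 times and phosphofructokinase at 1.12 times the control level. Hexokinase (HK1 and HK2, 0.997), aldolase (1.05), monocarboxylate transport (1.07) and the pyruvate dehydrogenase kinases (0.981) overlapped between groups. The aldolase overlap was narrow, at 16.99 FPKM in control replicate 2 and 16.95 FPKM in ILL replicate 1.

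GAPDH, which oxidizes glyceraldehyde 3-phosphate and often serves as a reference gene, was the most abundant of the 33 genes at 5646 ± 326 FPKM (SD, n = 3) in controls. It was at 7942, 7910 and 8811 CPM in controls and 7160, 6519 and 7081 CPM with ILL. The log2 fold change was -0.25 (SE 0.05, edgeR adjusted p = 6.3e-05), and the groups did not overlap. GENCODE names 62 pseudogenes after GAPDH, the most for any of these genes, so reads that match several copies make its level uncertain.

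PGK1, which makes the first ATP of the lower pathway, fell by 0.20 on the log2 scale (SE 0.05, edgeR adjusted p = 0.00073). PGAM1, the mutase that follows, fell by 0.58 (adjusted p = 1.0e-09), at 264, 252 and 250.2 CPM in controls and 184, 167 and 160.3 CPM with ILL. PGAM1 has 13 named pseudogenes and a close retrogene copy, PGAM4, which was at 0.901 to 1.30 CPM in controls and 0.0872 to 0.428 CPM with ILL and could take reads from it.

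Enolase showed an opposite movement of isoforms. ENO1, the ubiquitous enolase, was at 1157, 1171 and 1302 CPM in controls and 664, 627 and 619 CPM with ILL. Its log2 fold change was -0.93 (SE 0.05, edgeR adjusted p = 4.4e-14), the second largest decrease after PFKM. ENO2, the neuron-type enolase, rose from 18.7, 17.9 and 21.5 CPM to 31.4, 35.1 and 31.4 CPM. The ENO2 log2 fold change was 0.75 (SE 0.09, edgeR adjusted p = 3.1e-08), and all ILL libraries lay above all controls. By FPKM, ENO2 went from 2.15% ± 0.0828 to 6.58% ± 0.514 of the family (SD, n = 3 each; exact permutation p = 0.1), so ENO1 stayed the main form in every library. ENO3, the muscle-type enolase, was near the filter and had a log2 fold change of -0.39 (adjusted p = 0.32). Of the 2 enolase windows printed above, that of ENO2 holds ACGTG once and that of ENO1 does not hold it. Whether this bears on their levels was not tested.

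PKM, which makes pyruvate and a second ATP, was at 2014, 2104 and 2203 CPM in controls and 1850, 1969 and 1883 CPM with ILL. All ILL libraries were below all controls, and the log2 fold change of -0.15 (SE 0.05, edgeR adjusted p = 0.0064) was the smallest among the genes that passed. A gene-level count cannot separate the PKM1 and PKM2 splice forms. LDHA, which reduces pyruvate to lactate, was at 1016, 993 and 1027 CPM in controls and 551, 561 and 590.4 CPM with ILL. The LDHA log2 fold change was -0.83 (SE 0.05, edgeR adjusted p = 5.3e-14). LDHB, the heart-type subunit, was at 36 to 57 counts in controls and 36 to 70 counts with ILL (log2 fold change 0.21, adjusted p = 0.62, and -0.06 without ILL replicate 2), and LDHA held at least 99.5% of the family's FPKM in every library. Exons of AC010197.2 on the same strand cover 33.4% of the exon bases of LDHB, so its low count also depends on how shared reads were assigned.

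**Figure D3:**
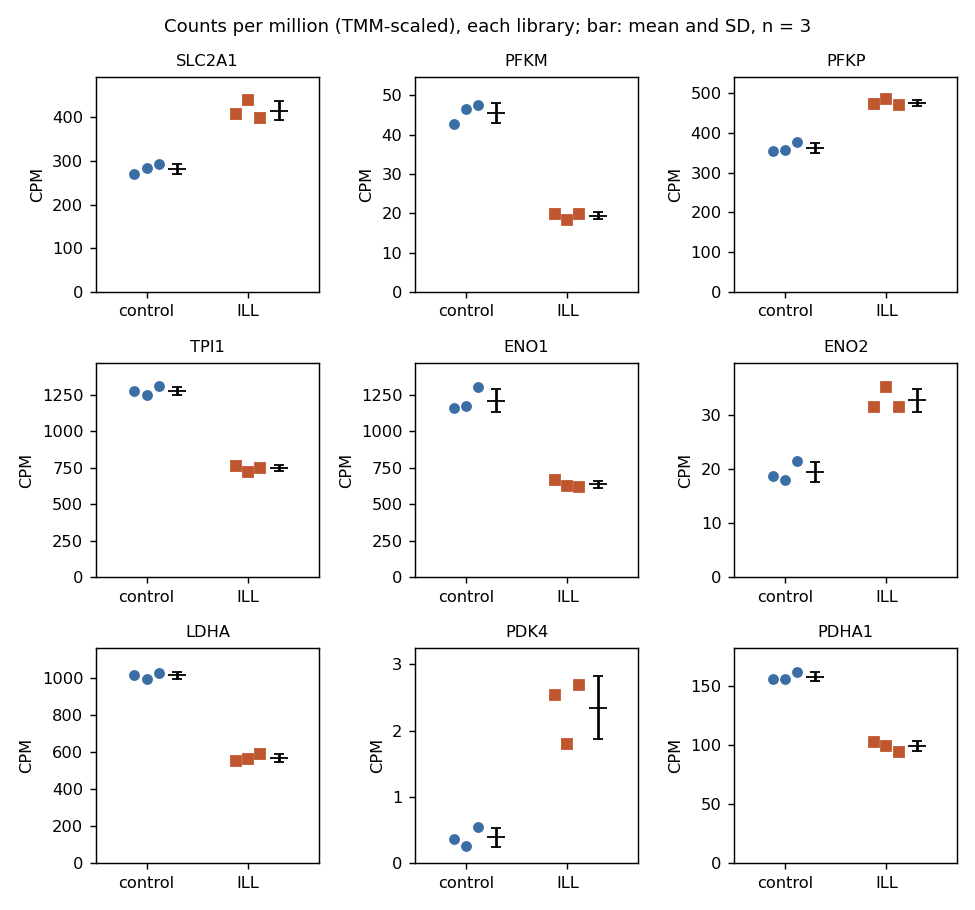
TMM-scaled counts (CPM) of 9 genes in each library, with axes that start at 0 and bars for the mean and SD (n = 3). The groups are separated in each panel, with SLC2A1, PFKP, ENO2 and PDK4 higher and PFKM, TPI1, ENO1, LDHA and PDHA1 lower with ILL.

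Lactate leaves the cell through monocarboxylate transporters, and here too a pair of isoforms moved apart. SLC16A1, which encodes MCT1, fell by 0.63 on the log2 scale (SE 0.06, edgeR adjusted p = 9.4e-10), from 118 to 121 CPM in controls to 72.2 to 83.4 CPM with ILL. SLC16A3, which encodes MCT4, the exporter typical of glycolytic cells, rose by 0.32 (SE 0.06, edgeR adjusted p = 2.7e-05), from 312 to 340.4 CPM to 371 to 442 CPM. MCT4 transcripts thus went from 79.1% ± 0.926 to 87.9% ± 0.971 of the summed FPKM of both (SD, n = 3 each; exact permutation p = 0.1).

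Pyruvate dehydrogenase kinases phosphorylate and switch off the pyruvate dehydrogenase complex, and their genes did not move together. PDK4, a kinase known to respond to fasting and fatty acids, had 14, 9 and 19 counts in controls and 89, 62 and 94 counts with ILL. These are 0.361, 0.256 and 0.537 CPM against 2.54, 1.80 and 2.69 CPM, a log2 fold change of 2.60 (SE 0.40, edgeR adjusted p = 3.4e-06). The value was between 2.38 and 2.90 when each library was left out in turn, and every ILL library lay above every control. It remained a gene of low level, at 0.636 ± 0.132 FPKM (SD, n = 3) with ILL.

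PDK2 was also higher, with a log2 fold change of 0.36 (SE 0.11, edgeR adjusted p = 0.0063), at 12.9, 11.6 and 13.1 CPM in controls and 13.7, 18.0 and 16.6 CPM with ILL. SAMD14, on the other strand, covers 38.6% of the exon bases of PDK2. PDK1, a known target of hypoxia-inducible factors, fell by 0.35 (adjusted p = 0.0024) and PDK3 by 0.66 (adjusted p = 4.3e-05). In shares of the family's FPKM, PDK1 went from 49.4% ± 1.79 to 37.8% ± 4.33, PDK2 from 38.6% ± 1.72 to 48.2% ± 5.30 and PDK4 from 1.24% ± 0.394 to 7.43% ± 1.69 (SD, n = 3 each; exact permutation p = 0.1 for each). PDK2 was below PDK1 in FPKM in all 3 control libraries and in ILL replicate 1, and above it in ILL replicates 2 and 3. The summed kinase level was 8.42 to 9.21 FPKM in controls and 8.42 to 8.85 FPKM with ILL. The FPKM of these kinases rest on gene lengths implied by the deposited values, 5349 bases for PDK1, 3797 for PDK2 and 13074 for PDK3. GENCODE release 29 has 14883, 5481 and 4951 exon bases for them. The shares, the order of PDK1 and PDK2 and the summed level therefore depend on the annotation.

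**Figure D4:**
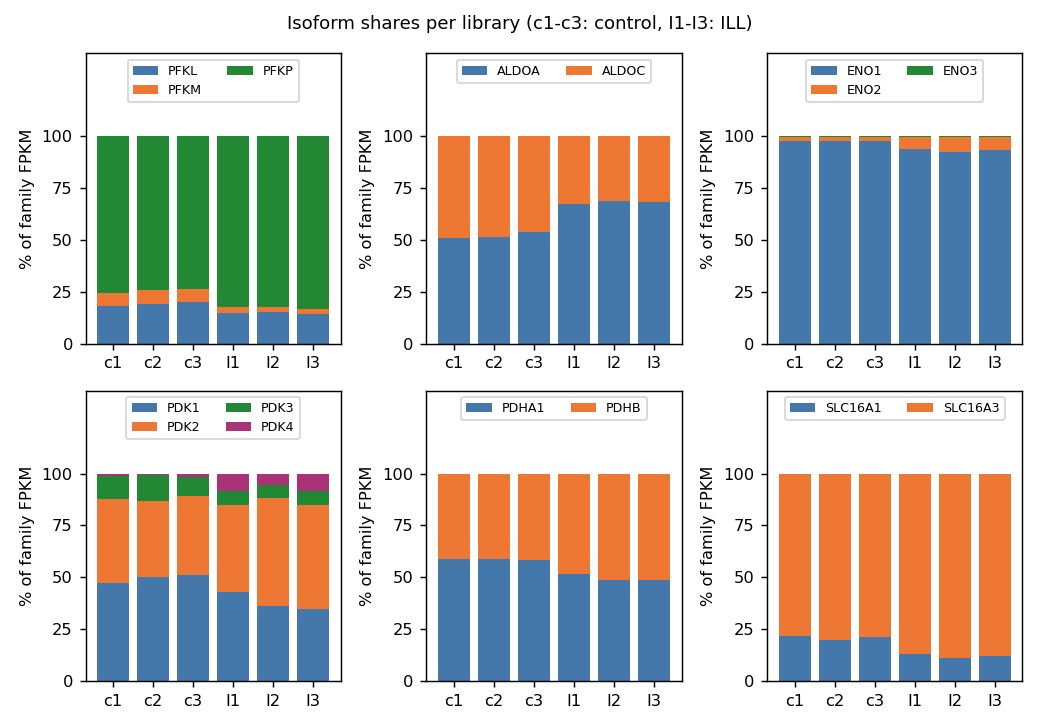
Share of each isoform in the summed FPKM of its family, per library (c1 to c3 are controls, I1 to I3 are ILL). The shares of PFKP, ALDOA, ENO2, PDK2, PDK4, PDHB and SLC16A3 are larger in each ILL library than in each control.

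PDHA1 and PDHB encode the subunits of the E1 component that the kinases act on, and they were not lowered equally. PDHA1 was at 155.4, 155.2 and 161.7 CPM in controls and 102.5, 99.0 and 94.2 CPM with ILL. Its log2 fold change was -0.68 (SE 0.05, edgeR adjusted p = 4.9e-11). PDHB, at 46.9 to 50.3 CPM in controls and 42.1 to 45.6 CPM with ILL, had a log2 fold change of -0.15 (adjusted p = 0.053), although its groups did not overlap, and it passed without ILL replicate 2 (-0.18), with scaling by library size only and in the limma fits on FPKM. PDHA1 held 58.7% ± 0.405 of the summed FPKM of both in controls and 49.6% ± 1.54 with ILL (SD, n = 3 each; exact permutation p = 0.1). MAP3K15, on the other strand, covers 21.3% of the exon bases of PDHA1.

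The 6 genes with the highest level per length (FPKM) in controls, GAPDH, TPI1, PKM, LDHA, ENO1 and PGAM1, were all lower with ILL. The next 3 in level, PFKP at 103 FPKM, SLC16A3 at 103 FPKM and SLC2A1 at 85.4 FPKM, were all higher, while PGK1, next in level, was lower. PFKP and SLC16A3, at 103 ± 3.16 and 103 ± 4.73 FPKM in controls (SD, n = 3), did not differ beyond their spread, and neither did LDHA and ENO1, at 414 ± 6.38 and 392 ± 24.0 FPKM. Across the 11 isoform families, 28 shares were compared, and with Benjamini-Hochberg adjustment no exact permutation p went below 0.127, a limit set by 3 libraries per group.

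Of the 24 other isoforms and side enzymes of glycolysis, 14 were tested, 5 were higher and 6 lower with ILL (median log2 fold change 0.02). For this list and those that follow, the shares over all tested genes were 36.2% higher and 36.9% lower, with a median of -0.0012, and no list was tested against them. SLC2A12, a further glucose transporter, had 39, 9 and 17 counts in controls and 171, 176 and 187 counts with ILL, a log2 fold change of 3.11 (SE 0.33, edgeR adjusted p = 9.3e-09) that was 3.78 without control replicate 1. Like PDK4, SLC2A12 passed the filter on low counts through its ILL libraries. SLC2A10 rose by 1.38. LDHD, which acts on D-lactate, rose by 1.88 (SE 0.42) at a low level. It had 12, 21 and 29 counts in controls and 64, 102 and 54 counts with ILL. The transporter SLC2A8 went from 13.9 to 15.4 CPM in controls to 6.78 to 7.03 CPM with ILL, and ADPGK (-0.35) and PGM2 (-0.30) decreased less.

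Around pyruvate, 19 of 23 listed genes were tested, 5 higher and 10 lower (median -0.22). PCK2, the mitochondrial enzyme that makes phosphoenolpyruvate from oxaloacetate, rose from 33.5, 35.9 and 36.4 CPM to 288, 313 and 287 CPM, a log2 fold change of 3.07 (SE 0.06, edgeR adjusted p = 9.0e-23). GPT2, the mitochondrial alanine transaminase, rose by 1.82 and ME1, the cytosolic malic enzyme, by 1.58. FBP1, which reverses the phosphofructokinase step, fell by 1.61 at a low level (2.05 ± 0.508 CPM in controls, SD, n = 3). The pyruvate dehydrogenase phosphatase gene PDP2 fell by 1.16 and the mitochondrial malic enzyme gene ME3 by 0.95. PDP1, also a phosphatase gene of this complex, rose from a mean of 44.8 CPM in controls to 74.4 CPM with ILL. The PDP1 log2 fold change was 0.73 (SE 0.06, edgeR adjusted p = 9.1e-11).

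The tricarboxylic acid cycle list, 20 of 20 genes tested, had 15 lower and 3 higher (median -0.58), where 36.9% of all tested genes were lower and 36.2% higher. FH, fumarate hydratase, fell from 103, 111 and 120.3 CPM to 34.2, 39.5 and 33.9 CPM (log2 fold change -1.63, SE 0.07, edgeR adjusted p = 3.0e-16), and IDH3A and ACO1 fell by 1.27 and 0.86. The NADP-dependent IDH1, in the cytosol, rose by 0.96 and IDH3G by 0.18, but IDH3G did not pass without control replicate 1 (0.13) or control replicate 2 (0.16). Among 15 tested genes of monocarboxylate, triose and hexosamine branches, 6 were higher and 6 lower (median 0.21). GFPT1, which opens hexosamine synthesis, rose by 1.39, GNPDA1 by 0.62 and BSG, the chaperone of MCT1 and MCT4, by 0.41, while KHK, PGP and SORD fell by 1.28, 1.26 and 1.03.

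Of 16 listed regulators, 8 were higher and 5 lower (median 0.27). TXNIP, an inhibitor of glucose uptake whose gene responds to glucose, was at 250.7, 249.8 and 250.1 CPM in controls and 638, 619 and 617 CPM with ILL (log2 fold change 1.32, SE 0.05, edgeR adjusted p = 6.1e-18). Its relative ARRDC4 rose by 0.77 and the stress response factor ATF4 by 1.74. PPARGC1B and MYC fell by 1.27 and 0.56. HIF1A had a log2 fold change of 0.03 (adjusted p = 0.57). Other genes of hypoxia-inducible factor subunits were higher, EPAS1 by 0.59 (SE 0.05, edgeR adjusted p = 1.2e-10) and ARNT by 0.40 (SE 0.07, edgeR adjusted p = 9.2e-06). These values measure transcripts and not proteins.

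**Figure D5:**
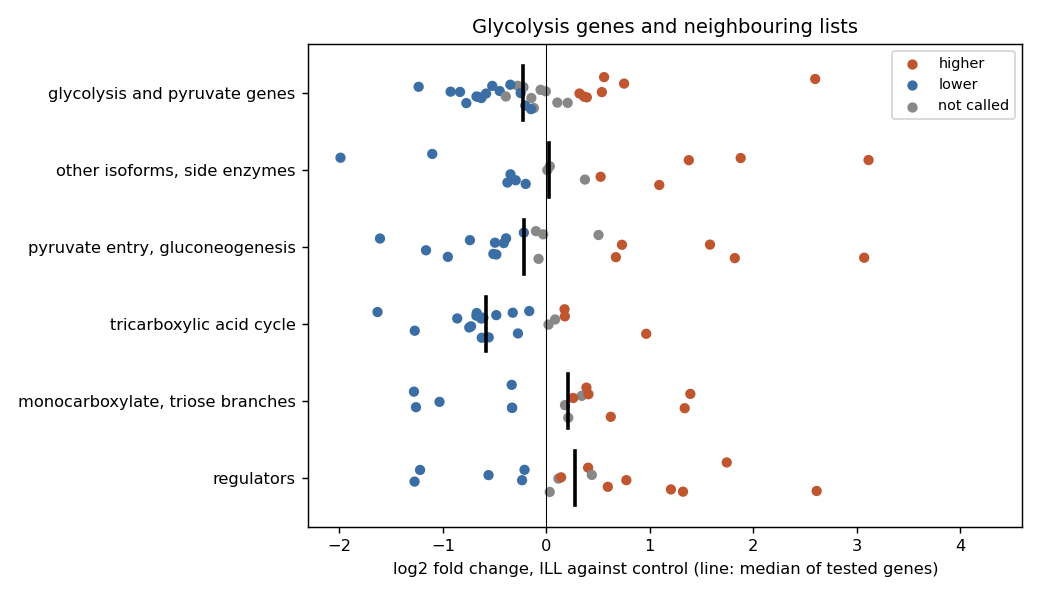
Log2 fold change of the tested genes of the 33 and of 5 neighbouring lists, with colors for the edgeR call and a black line for each median. The tricarboxylic acid cycle has the lowest median (-0.58), and single genes of the neighbouring lists, such as SLC2A12 and PCK2, lie farther from 0 than any of the 33.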

How the data were processed

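RNA of 6 HCCC9810 libraries was analysed, 3 treated with ILL and 3 with vehicle, grouped by sample title. Per gene symbol, the authors deposited unnormalized counts and, in a second table, FPKM, with 1 column per library. The submitters' processing notes name GRCh38 and DESeq2, while the aligner and counting program are not given in the sources used here. The FPKM values deposited by the authors equal counts per gene length and total count (implied lengths within a relative 0.001 over libraries for 100% of 12729 genes).

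Counts were filtered with filterByExpr and scaled by TMM, and the quasi-likelihood test of edgeR 4.0.16 (R 4.3.3) was run on all 13066 remaining genes, with p-values adjusted by Benjamini-Hochberg. Standard errors follow from its F statistic, and CPM are TMM-scaled. Depth was 34282764 to 37758569 counts per library, and the biological coefficient of variation was 0.0717. Isoform shares were compared with two-sided exact permutation tests. Alternatives used other scalings, filters, DESeq2 1.42.0, limma 3.58.1 on log2 of FPKM plus 1 or 0.1, a replicate block and left-out libraries. Positions and overlaps come from GENCODE release 29 and promoters from RefSeq, both on GRCh38.

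The genes and lists were chosen with earlier results of these data known. Values per library are given for DEGs and genes named in the design (SLC2A1, HK2, PFKP, GAPDH, PKM, LDHA, PDHA1), with others added after their values were seen. From each other list, up to 3 called genes at each end are named. These have no overlap between groups and a mean level of 1 CPM or more. PGAM4, HIF1A, CD68, HKDC1, PDP1, EPAS1 and ARNT were added later. Some listed genes are not reported here.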

Additional observations from a re-analysis of the deposited data

How the results depend on the processing

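Of the 31 tested genes, 26 had an unchanged call in every alternative run for them. Among these, the sign turned for HK2 and LDHB, which did not pass in any. HK2 was between -0.075 and 0.069 over all alternatives, and LDHB was -0.06 without ILL replicate 2. With limma on log2(FPKM + 1) without a filter, PDK2 did not pass (log2 fold change 0.23). SLC2A3 and HK1 passed without control replicate 3 (-0.43 and 0.16), where 8 genes were higher. PFKL (-0.19) and PDHB (-0.22) passed with scaling by library size only, which gave 17 lower genes, moved the median over all genes to -0.07 and that of the 31 to -0.29. Both also passed without ILL replicate 2 (-0.16 and -0.18), which likewise gave 17 lower genes, and with limma on log2(FPKM + 1) (-0.18 and -0.21) or log2(FPKM + 0.1) (-0.19 and -0.21) at a mean FPKM of at least 1, which gave 16. PFKL passed without control replicate 1 (-0.18) and PDHB with log2(FPKM + 1) without a filter (-0.21). With log2(FPKM + 0.1) the median was -0.28 over those of the 31 with a mean FPKM of at least 1, and -0.10 over all genes kept by this filter. The filter left out PDK3, PDK4, ENO3, LDHB and PFKFB4. Without 1 library the median of the 31 was between -0.22 and -0.18. No higher DEG was left (0) with at least 10 counts in every library or with a mean FPKM of at least 1, because PDK4 was removed by these filters, and 0 with log2(FPKM + 1) without a filter, where PDK4 had a log2 fold change of 0.56 (limma, adjusted p = 0.00039) that the pseudocount reduced. Without 1 library there were 7 to 8 higher and 15 to 17 lower genes.

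In the other lists, both filtered FPKM fits gave 3 higher genes for the other isoforms and 5 for the regulators, and they, the unfiltered FPKM fit and library size only gave 1 higher gene for the tricarboxylic acid cycle, which had 1 to 3 without 1 library (1 without control replicate 1 or control replicate 2). Same-numbered libraries did not deviate together (correlations 0.0067, -0.020 and -0.060). This cannot show whether they share a culture, which the labels do not say. With the replicate block, 7 genes were higher and 15 lower, as without it, with a median of -0.22. Shares of counts in place of FPKM moved 10 of the 28 isoform share differences by more than 1 SD and turned none of those whose groups did not overlap. With 3 libraries per group the exact permutation test could not reach 0.05, and low counts limit PDK4, ENO3, LDHB and PFKFB4.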
